A study of Mus musculus with 20 samples.

Results

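The miR-130 and miR-301 family consists here of the mature microRNAs of 4 mouse precursors, miR-130a, miR-130b, miR-301a and miR-301b, each read from its 3p and its 5p arm. These 8 mature forms (mmu-miR-130a-3p, mmu-miR-130a-5p, mmu-miR-130b-3p, mmu-miR-130b-5p, mmu-miR-301a-3p, mmu-miR-301a-5p, mmu-miR-301b-3p and mmu-miR-301b-5p, named below without the species prefix) were taken by name from 1481 microRNA features quantified in mouse primary cortical neurons, and all 8 had reads in all 20 libraries. They were chosen by the steadily higher level of mmu-miR-130a-3p after oxygen-glucose deprivation (OGD) in these same data, so the OGD values of the family below are a description: no p-value is given for them, and calls are counted only beside the share of all features called.

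The study sequenced small RNA from cortical neurons that were isolated from embryos at E15 and cultured for 7 days. Every library, wild type included, carries the strain label C57BL/6N-Cdr1asem1Nikr, and the genotype label is either WT or ciRS-7 KO, in which the circular RNA ciRS-7 (Cdr1as) is knocked out. Normoxic cultures were held for 12 h at 5% CO2 and 37 °C in medium with 25 mM glucose and 0.2 mM pyruvate. OGD cultures spent the 12 h in a hypoxic chamber at 1% O2, 5% CO2 and 37 °C, in the same medium without the added glucose and pyruvate. Each of the 4 groups (WT and KO, normoxia and OGD) had 5 biological replicates, per the series design. OGD is a culture model of the loss of blood supply in stroke, and ciRS-7 is a neuronal circular RNA best known for its binding sites for miR-7.

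A microRNA hairpin is cropped by Drosha and then by Dicer into a short duplex, and usually 1 strand of that duplex stays in an Argonaute protein and guides it to messenger RNAs. Target choice rests mainly on the seed, bases 2 to 8 from the 5′ end, so 3p forms with 1 shared seed can repress overlapping sets of messages. The 3p forms of this family are known for repressing PPARG and parts of TGF-beta signalling in vascular and lung tissue.

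The mature sequences are shown because the shared seed defines the family and because the balance between 3p and 5p arms of some hairpins differed under OGD. RefSeq (GRCm38.p6, the assembly called mm10) held 7 of the 8 forms. miR-301b-3p had no entry. Letters run 5′ to 3′ and capitals mark the seed.
miR-130a-3p: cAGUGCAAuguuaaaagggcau
miR-130b-3p: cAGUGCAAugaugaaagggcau
miR-301a-3p: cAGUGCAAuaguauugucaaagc
miR-130a-5p: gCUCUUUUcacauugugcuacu
miR-130b-5p: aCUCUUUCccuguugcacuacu
miR-301a-5p: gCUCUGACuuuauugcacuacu
miR-301b-5p: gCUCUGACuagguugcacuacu
The 3 listed 3p forms had the same seed. Among the 5p forms only miR-301a-5p and miR-301b-5p shared one. miR-130a-3p and miR-130b-3p were identical at 20 of 22 positions and differed by U11A and A13G, counted from the 5′ end with the miR-130a-3p base first. miR-301a-5p and miR-301b-5p were identical at 19 of 22 positions and differed by U10A, U11G and A12G, with the miR-301a-5p base first. How reads were divided between such near-identical forms is not given in the sources used here. The split between miR-130a-3p and miR-130b-3p, and between miR-301a-5p and miR-301b-5p, is uncertain to that extent. The miR-301b hairpin also holds a stretch nearly identical to miR-301a-3p, so the split between miR-301a-3p and miR-301b-3p is uncertain in the same way. Levels and arm balances of these forms below rest on these splits.

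The precursors lie at 3 places in the genome. miR-130a-3p maps to chr2:84741116-84741137 on the minus strand and overlaps no annotated gene other than its own microRNA gene; the nearest protein-coding gene, Gm19426, lies 991 bases away. miR-130b-3p maps to chr16:17124071-17124092 on the minus strand, in an intron of 2610318N02Rik. The miR-301b hairpin lies 257 bases from the miR-130b hairpin, in the same gene and on the same strand, with miR-301b-5p at chr16:17124456-17124477. miR-301a-3p maps to chr11:87113054-87113076 on the plus strand, in an intron of Ska2, which encodes a spindle and kinetochore protein.

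The hairpins of miR-130a and miR-130b are shown with both mature arms in capitals, the 5p arm first, because their 3p forms are nearly the same while their arm balance was not.
miR-130a hairpin: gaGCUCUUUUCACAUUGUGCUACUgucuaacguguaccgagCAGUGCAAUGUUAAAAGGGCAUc
miR-130b hairpin: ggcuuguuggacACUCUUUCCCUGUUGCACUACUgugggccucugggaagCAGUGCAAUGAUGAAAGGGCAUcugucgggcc

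Levels are in CPM, the reads of a feature per 1000000 reads of its library. The reads were recovered as whole numbers from the deposited values. Library sizes keep the relative factors the authors had used, with their mean level set to that of the recovered reads. Libraries held 2492065 to 9117862 reads in WT normoxia, 1160582 to 4374002 in WT OGD, 5884616 to 12477032 in KO normoxia and 1811589 to 3119212 in KO OGD, so the OGD libraries were mostly shallower. On the first principal component of 423 features, which held 83.0% of the variance, WT normoxic replicate 5 lay at -0.88, between the other WT normoxic libraries (-14.46 to -13.09) and the OGD libraries (7.00 to 15.05). KO normoxic replicates 1 and 3 lay at -13.49 and -14.46, and replicates 2, 4 and 5 at -6.61, -6.46 and -9.69. Values without WT normoxic replicate 5 are given beside the results where it matters most. miR-210-3p, a microRNA induced by hypoxia, rose under OGD by 2.49 (SE 0.26) on the log2 scale in WT and by 2.08 (SE 0.27) in KO (limma, adjusted p = 1.04e-06 and 2.28e-05), in the direction of the treatment labels. The libraries do not measure ciRS-7 itself, so the genotype label was not checked. In bulk RNA such as this, fewer cells of a type and less RNA per cell cannot be told apart.

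In normoxia the family was led by 3 forms from 3 different precursors. In WT these were miR-301a-5p at 144 ± 19.9 CPM, miR-130a-3p at 120.3 ± 7.50 CPM and miR-130b-5p at 107 ± 21.8 CPM (SD, n = 5), and the range of miR-130a-3p overlapped that of miR-130b-5p. It met that of miR-301a-5p only through WT normoxic replicate 5, at 110.3 CPM of miR-301a-5p; the other 4 libraries lay at 139.8 CPM or more. The other 5 forms were far lower. miR-130b-3p stood at 25.5 ± 1.35 CPM and miR-301a-3p at 22.0 ± 4.73 CPM, with ranges that overlapped only through the same replicate. miR-301b-3p (10.5 ± 2.58 CPM), miR-301b-5p (8.10 ± 2.61 CPM) and miR-130a-5p (6.44 ± 1.61 CPM) were lower still, and the range of miR-301b-5p overlapped both of the others. The KO cultures had the same order in normoxia, from 148 ± 11.7 CPM for miR-301a-5p to 6.29 ± 0.592 CPM for miR-130a-5p. After OGD miR-130a-3p stood alone at the top, at 300.1 ± 49.3 CPM in WT and 297 ± 26.1 CPM in KO, with no overlap with miR-301a-5p in second place. Its abundance rank among all 1481 features went from 192 to 147 in WT and from 188 to 143 in KO.

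**Figure D1:**
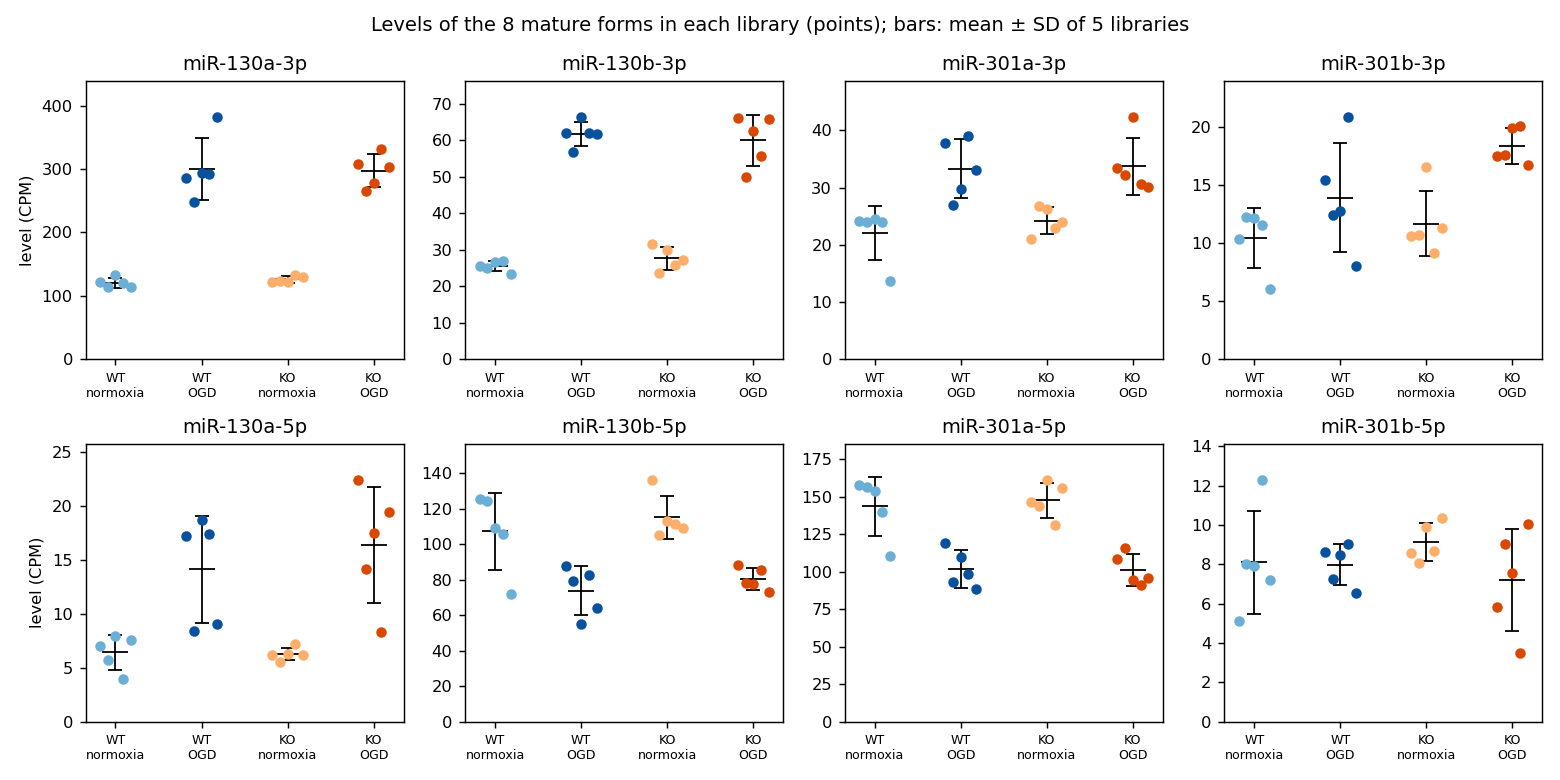
Level of each mature form in CPM (vertical axis, linear, from 0) in the 20 libraries, with 1 point per library and mean ± SD of 5 libraries per group. The 3p forms of miR-130a and miR-130b are higher in every OGD library than in any normoxic library of the same genotype, while miR-130b-5p and miR-301a-5p are lower after OGD, with WT normoxic replicate 5 among the OGD values.

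miR-130a-3p, the most abundant 3p form, was higher after OGD in both genotypes. In WT normoxia it stood at 121, 113, 132, 120.3 and 114 CPM in replicates 1 to 5, and in WT OGD at 286, 247, 293, 293 and 381 CPM. In KO normoxia the values were 121, 123, 122, 133 and 129 CPM, and in KO OGD 308, 265, 278, 332 and 304 CPM. All 10 OGD libraries lay above all 10 normoxic ones, and the normoxic values were close together. The log2 fold change was 1.30 (SE 0.12, 95% interval 1.04 to 1.56), or 2.47-fold, in WT, and 1.24 (SE 0.09, 1.05 to 1.42), or 2.36-fold, in KO. Within the 423 features averaging 3 or more on the log2(CPM + 0.5) scale, this was the change in place 45 from the highest in WT and 46 in KO, where the median feature changed by 0.22 and 0.20. Its size was in the upper range of the library, and other microRNAs differed far more.

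miR-130b-3p, which shares the seed and most of the remaining letters with miR-130a-3p, was higher by almost the same factor from a much lower level. It stood at 25.6, 25.0, 26.5, 26.8 and 23.4 CPM in WT normoxia and at 61.9, 56.6, 66.3, 61.9 and 61.7 CPM in WT OGD. In KO the values were 31.4, 23.5, 29.8, 25.8 and 27.3 CPM in normoxia and 66.0, 49.8, 62.6, 55.5 and 65.8 CPM after OGD. The groups did not overlap in either genotype. The log2 fold change was 1.26 (SE 0.13) in WT and 1.11 (SE 0.13) in KO.

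The 3p forms of miR-301a and miR-301b differed less between treatments, and under other scalings the direction turned for miR-301a-3p in both genotypes and for miR-301b-3p in WT. miR-301a-3p stood at 24.1, 24.0, 24.5, 24.0 and 13.6 CPM in WT normoxia, and at 37.8, 26.9, 29.7, 38.9 and 33.1 CPM in WT OGD. WT normoxic replicate 5 was far below its group. The log2 fold change was 0.60 (SE 0.19) in WT, 0.44 (SE 0.15) without that replicate, and 0.46 (SE 0.13) in KO, where the values ran from 21.0 to 26.7 CPM in normoxia and from 30.1 to 42.3 CPM after OGD. With quantile normalization the difference turned to -0.04 in WT and -0.09 in KO, and with each library centred on its median to 0.04 in WT and -0.05 in KO. miR-301b-3p was low throughout, at 10.5 ± 2.58 CPM in WT normoxia, 13.9 ± 4.71 in WT OGD, 11.7 ± 2.83 in KO normoxia and 18.4 ± 1.55 in KO OGD. Its log2 fold change was 0.37 (SE 0.26) in WT, where the groups overlapped and centring gave -0.19, and 0.20 (SE 0.23) in WT without WT normoxic replicate 5. It was 0.66 (SE 0.16) in KO, where centring gave 0.15.

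The 5p forms of miR-130b and miR-301a were lower after OGD. In WT normoxia miR-130b-5p stood at 126, 124, 109, 106 and 71.8 CPM, and after OGD at 88.0, 79.1, 55.2, 82.7 and 64.2 CPM. In KO it stood at 136, 105, 113, 111 and 109 CPM in normoxia and at 88.1, 78.2, 77.8, 85.8 and 73.0 CPM after OGD. The KO groups did not overlap, and the WT groups overlapped only through WT normoxic replicate 5. The log2 fold change was -0.53 (SE 0.17) in WT, -0.67 (SE 0.14) without replicate 5 of WT normoxia, and -0.51 (SE 0.10) in KO.

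miR-301a-5p, the most abundant form in normoxia, followed the same course. Its WT values were 158, 156, 154, 139.8 and 110.3 CPM in normoxia and 119, 93.2, 109.6, 98.7 and 88.3 CPM after OGD. Its KO values were 146, 144, 161, 131 and 156 CPM in normoxia and 109, 116, 94.5, 91.3 and 95.8 CPM after OGD. Again the KO groups were apart and the WT groups met only through WT normoxic replicate 5. The log2 fold change was -0.49 (SE 0.13) in WT, -0.58 (SE 0.12) without that replicate, and -0.54 (SE 0.10) in KO.

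The remaining 5p forms were scarce. miR-130a-5p, the minor strand of its hairpin, was higher after OGD together with its 3p partner, at 6.44 ± 1.61 against 14.1 ± 4.98 CPM in WT and 6.29 ± 0.592 against 16.4 ± 5.42 CPM in KO, with no overlap in either genotype. The log2 fold change was 1.04 (SE 0.27) in WT and 1.25 (SE 0.22) in KO. With centring, trimmed-mean scaling and quantile normalization it was 0.48, 0.65 and 0.40 in WT and 0.74, 0.88 and 0.70 in KO. miR-301b-5p rested on 10 to 35 reads per library in WT OGD and 10 to 21 in KO OGD. It gave a log2 fold change of 0.02 (SE 0.24) in WT and -0.40 (SE 0.24) in KO, with overlapping groups in both. With centring, trimmed-mean scaling and quantile normalization it was -0.54, -0.36 and -0.59 in WT, and -0.91, -0.76 and -0.95 in KO. Leaving out 1 library moved it between -0.12 and 0.18 in WT, with -0.01 without WT normoxic replicate 5, and between -0.53 and -0.18 in KO, the latter without KO OGD replicate 4.

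Over the 8 forms, the WT OGD libraries lay wholly above the WT normoxic ones for 4 forms, against 13.5% of all features, and wholly below for 0, against 2.57%. Without WT normoxic replicate 5 the counts were 4 above and 2 below, against 16.8% and 3.65% of features. In KO, 5 forms lay wholly above, against 15.3% of features, and 2 wholly below, against 3.79%. By limma (adjusted p under 0.05) 6 of 8 forms were called in WT, 4 higher and 2 lower, where 23.1% of 1478 features were called, 18.7% higher and 4.4% lower. In KO 7 of 8 were called, 5 higher and 2 lower, where 24.5% of 1479 features were called, 18.8% higher and 5.75% lower. Because the choice of the family used this contrast, nothing is read from these counts. With all libraries thinned to the depth of the shallowest, 3 forms were called higher and 0 lower in WT, where 13.8% of features were called higher and 3.38% lower, and 3 higher and 2 lower in KO, where the shares were 11.9% and 3.04%. In WT 2 forms were called higher and 2 lower with centring, trimmed-mean scaling and quantile normalization alike, where 7.31%, 10.7% and 9.54% of features were called higher and 17.9%, 9.74% and 12.9% lower. In KO 3 were called higher and 3 lower with centring (7.57% and 21.9% of features) and with trimmed-mean scaling (10.5% and 13.2%), and 2 higher and 3 lower with quantile normalization (9.53% and 12.6%). The median log2 fold change of the 8 forms was 0.49 in WT and 0.56 in KO, beside 0.32 and 0.24 over all features. Centring each library on its median lowers every log2 fold change by 0.56 in WT and 0.51 in KO. Trimmed-mean scaling lowers those of the 8 forms by a median of 0.40 and 0.38. Relative to that centre miR-130a-3p was higher by 0.74 and 0.73 and miR-130b-3p by 0.70 and 0.60, while miR-130b-5p was at -1.09 and -1.02 and miR-301a-5p at -1.05 and -1.05. These 4 forms and miR-130a-5p kept their direction in all 21 alternatives run in each genotype.

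**Figure D2:**
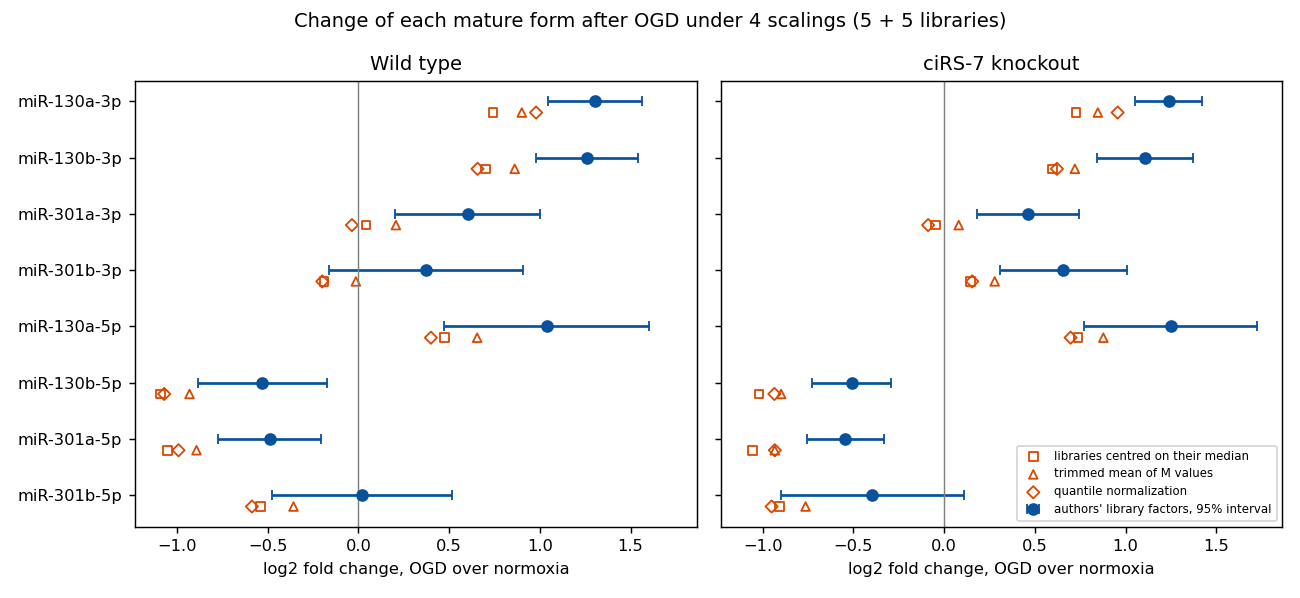
Log2 fold change of each form, OGD over normoxia, in WT (left) and ciRS-7 KO (right), 5 libraries per group. Filled circles with 95% intervals use the authors' library factors and open symbols show 3 other scalings; miR-130a-3p, miR-130b-3p and miR-130a-5p stay above 0 and miR-130b-5p and miR-301a-5p stay below 0 in all 4, while miR-301a-3p turns below 0 with quantile normalization in both genotypes and with centring in KO, miR-301b-3p turns below 0 in WT, and miR-301b-5p in WT is above 0 only with the authors' factors.

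**Figure D3:**
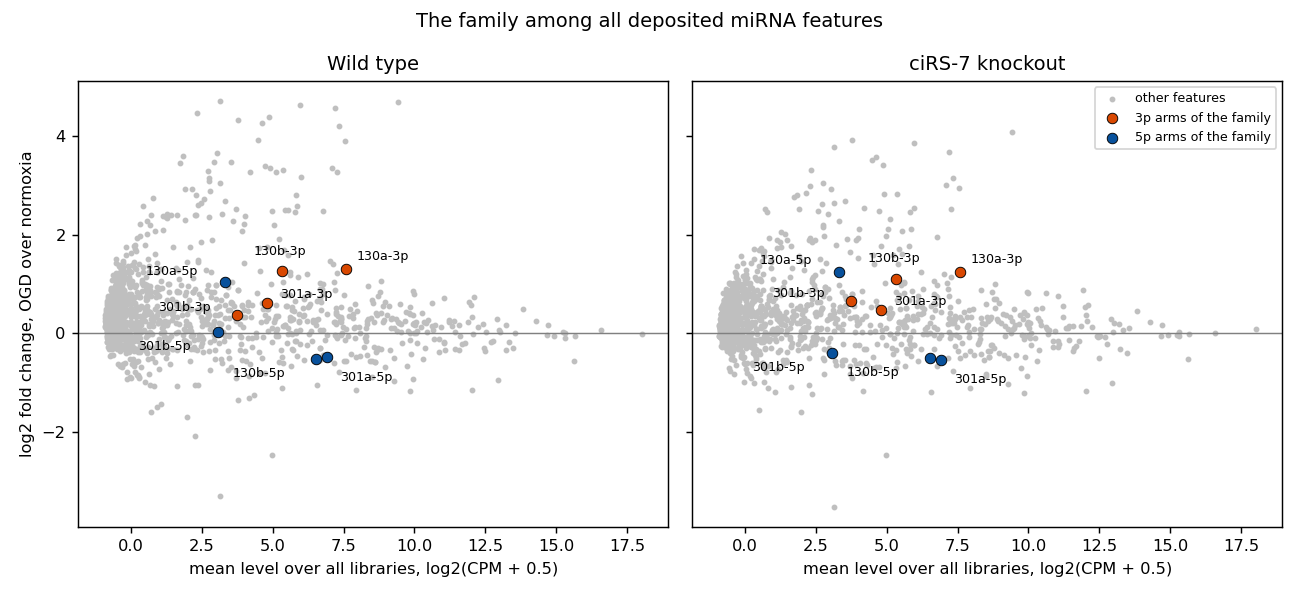
Log2 fold change, OGD over normoxia (vertical axis), against mean log2(CPM + 0.5) over 20 libraries (horizontal axis), 1 point per microRNA feature, in WT (left) and ciRS-7 KO (right). miR-130a-3p, at 1.30 and 1.24, is among the higher changes at its level but below many others; miR-130b-5p and miR-301a-5p lie below 0.

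The balance of the arms of a single hairpin also differed between treatments. This comparison does not depend on library scaling because both arms are counted in the same library. It does depend on how reads were divided between near-identical forms, such as miR-130a-3p and miR-130b-3p, which is not given. The part of that division in the arm differences was not tested. Of the reads of the miR-130b hairpin, the 3p arm made up 16.9%, 16.8%, 19.6%, 20.2% and 24.6% in WT normoxia and 41.3%, 41.7%, 54.5%, 42.8% and 49.0% in WT OGD. In KO the shares were 18.8%, 18.2%, 20.9%, 18.8% and 19.97% in normoxia and 42.8%, 38.9%, 44.6%, 39.3% and 47.4% after OGD. In normoxia the 5p arm held most reads, and after OGD the arms were near parity, with no overlap between treatments. The widest Wilson 95% interval of these 20 shares, in WT OGD replicate 3 with 143 reads, ran from 46.4% to 62.5%; such intervals cover counting error only. The log2 ratio of 3p to 5p reads differed by 1.81 in WT, 1.91 without WT normoxic replicate 5, and 1.63 in KO.

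miR-301a differed in the same direction from a lower start. Its 3p share was 13.3%, 13.3%, 13.7%, 14.6% and 11.0% in WT normoxia, and 24.1%, 22.4%, 21.3%, 28.3% and 27.3% in WT OGD. In KO it was 14.1% ± 1.22 in normoxia, from 12.6% to 15.7%, and 25.0% ± 3.49 after OGD, from 21.7% to 30.9%. The treatments did not overlap in either genotype. The log2 ratio differed by 1.11 in WT, 1.04 without WT normoxic replicate 5, and 1.02 in KO.

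The miR-130a hairpin gave almost only its 3p arm under every condition, with a share of 94.9% ± 1.16 in WT normoxia, 95.4% ± 1.66 in WT OGD, 95.2% ± 0.313 in KO normoxia and 94.7% ± 1.68 in KO OGD. For miR-301b, the neighbour of miR-130b, the 3p share was 56.4% ± 8.98 and 62.5% ± 5.40 in WT and 55.7% ± 4.47 and 72.3% ± 8.81 in KO, with overlap in WT and, by a small margin, in KO. Its log2 ratio differed by 0.35 in WT, 0.19 without WT normoxic replicate 5, and 1.08 in KO. It rested on as few as 25 reads, where the Wilson interval ran from 40.7% to 76.6%.

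Added over both arms, miR-130b reads were 133 ± 22.6 CPM in WT normoxia and 136 ± 12.0 in WT OGD, and 143 ± 14.9 and 140.5 ± 9.30 CPM in KO. The total of miR-130b was within the spread of its replicates across treatments on this scaling, while its 3p and 5p forms differed in opposite directions. miR-130a, in contrast, went from 127 ± 8.17 to 314 ± 48.5 CPM in WT and from 132 ± 5.66 to 314 ± 25.3 CPM in KO. miR-301a went from 166 ± 24.4 to 135 ± 15.1 CPM in WT and from 172 ± 12.7 to 135 ± 11.0 CPM in KO. miR-301b stayed low, between group means of 18.6 and 25.6 CPM.

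Across all 153 precursors with at least 10 reads per arm on average, differences of arm balance under OGD were common. The 3p to 5p ratio was higher without overlap after OGD in 17.6% of precursors in WT and 19.6% in KO, and lower without overlap in 17% and 19.6%. Of the 4 family precursors, miR-130b and miR-301a were higher without overlap in both genotypes. The median change over the 153 was 0.09 in WT and -0.00 in KO. miR-130b had place 10 from the highest in WT and place 7 in KO, and miR-301a places 17 and 19. miR-130a lay near the middle, at 65 and 82, and miR-301b at 52 and 18.

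**Figure D4:**
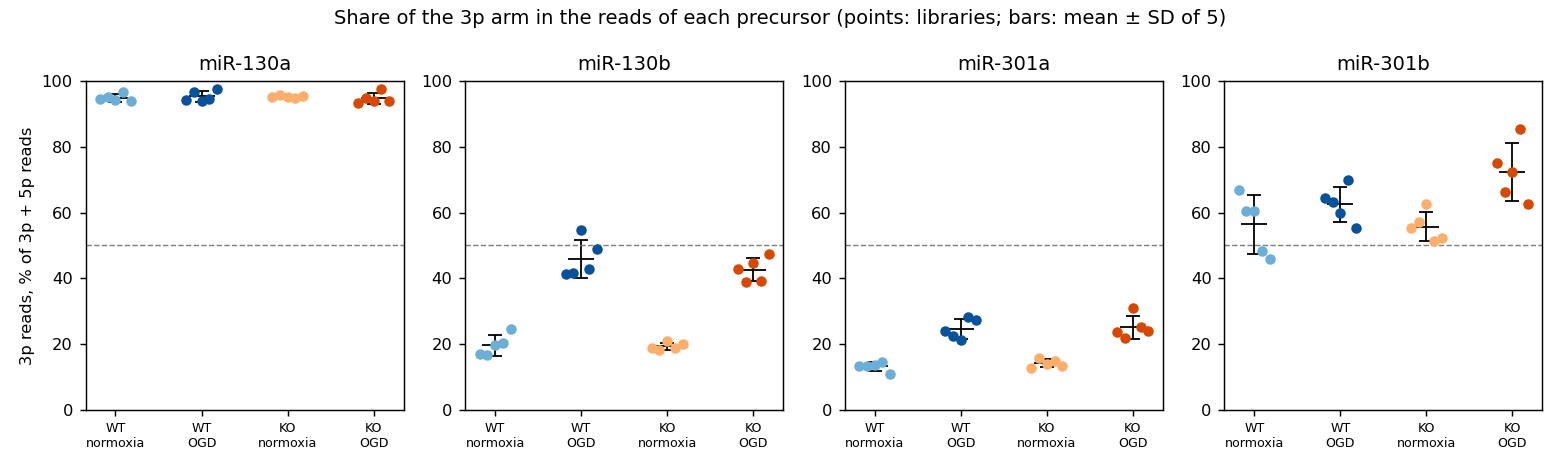
Share of the 3p arm in the reads of each hairpin, in percent of 3p plus 5p reads (vertical axis, 0 to 100, dashed line at parity), 1 point per library, with mean ± SD of 5. miR-130a stays near 95% in all groups, miR-130b goes from 19.6% to 45.9% in WT and 19.3% to 42.6% in KO, miR-301a from 13.2% to 24.7% and 14.1% to 25.0%, and the miR-301b groups overlap.

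With all 4 precursors added, the 3p forms, which carry the family seed in the 3 sequences shown above, came to 178 ± 13.9 CPM in WT normoxia and 409 ± 50.4 in WT OGD, and to 189 ± 4.88 and 409 ± 27.9 CPM in KO. The 5p forms came to 265 ± 40.7 and 198 ± 24.2 CPM in WT and to 278 ± 17.0 and 205 ± 15.1 CPM in KO. The 3p share of all family reads went from 40.4% ± 2.85 to 67.3% ± 4.25 in WT and from 40.5% ± 1.54 to 66.5% ± 2.69 in KO. Within the 3p sum, miR-130a-3p made up 67.6% ± 2.98 and 73.1% ± 3.26 in WT and 66.4% ± 2.54 and 72.6% ± 2.40 in KO, and miR-301a-3p 12.3% ± 2.07 and 8.18% ± 1.18 in WT. miR-130b-3p held 14.3% ± 0.520 and 15.2% ± 1.54 in WT.

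The comparison between genotypes was not used to choose the family, and it was tested. In normoxia 0 of the 8 forms differed between KO and WT, as did 0% of all 1481 features (limma, adjusted p under 0.05; 47 features had an unadjusted p under 0.05). After OGD the count was again 0 of 8 and 0% (108 unadjusted). The difference of the OGD effect between KO and WT gave 0 of 8 and 0% (74 unadjusted). No form had groups without overlap between genotypes, against 0.54% of features in normoxia and 0.945% after OGD. Fitted on the deposited scores, 33 features were called in normoxia and 72 after OGD. Those scores have the lowest and highest value of each group moved toward their neighbour, so they spread less within groups. Whether this raised the counts was not tested. On CPM without KO OGD replicate 5 the count after OGD was 22. No family form was among any of these calls.

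The intervals show what size of difference these libraries could have missed. For miR-130a-3p, KO minus WT was 0.06 in normoxia (95% interval -0.11 to 0.24; limma adjusted p = 0.984) and -0.00 after OGD (-0.24 to 0.23; adjusted p = 0.997), and its OGD effect differed by -0.07 (-0.37 to 0.23; adjusted p = 0.99). For miR-130b-3p the difference was 0.11 (-0.14 to 0.35) in normoxia and -0.05 (-0.33 to 0.24) after OGD. For the abundant 5p forms, KO minus WT after OGD was 0.14 (-0.15 to 0.44) for miR-130b-5p and -0.01 (-0.27 to 0.26) for miR-301a-5p. The largest difference among the 8 was that of miR-301b-3p after OGD, 0.45 higher in KO (-0.00 to 0.90; limma adjusted p = 0.658, 0.412 to 0.887 over its alternatives), where the 5 KO libraries lay between 16.7 and 20.1 CPM and the WT libraries between 8.03 and 20.9 CPM. That difference was 0.53 (SE 0.23) with centring and 0.50 (SE 0.22) with trimmed-mean scaling, and ranged from 0.28, without WT OGD replicate 5, to 0.61, without WT OGD replicate 4. Without WT normoxic replicate 5 the normoxic difference of miR-301a-3p went from 0.16 to -0.00, and 0 of the 8 forms were called. The difference in OGD effect had wide intervals for the scarce forms, at 0.21 (-0.53 to 0.95) for miR-130a-5p and -0.42 (-1.10 to 0.27) for miR-301b-5p.

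**Figure D5:**
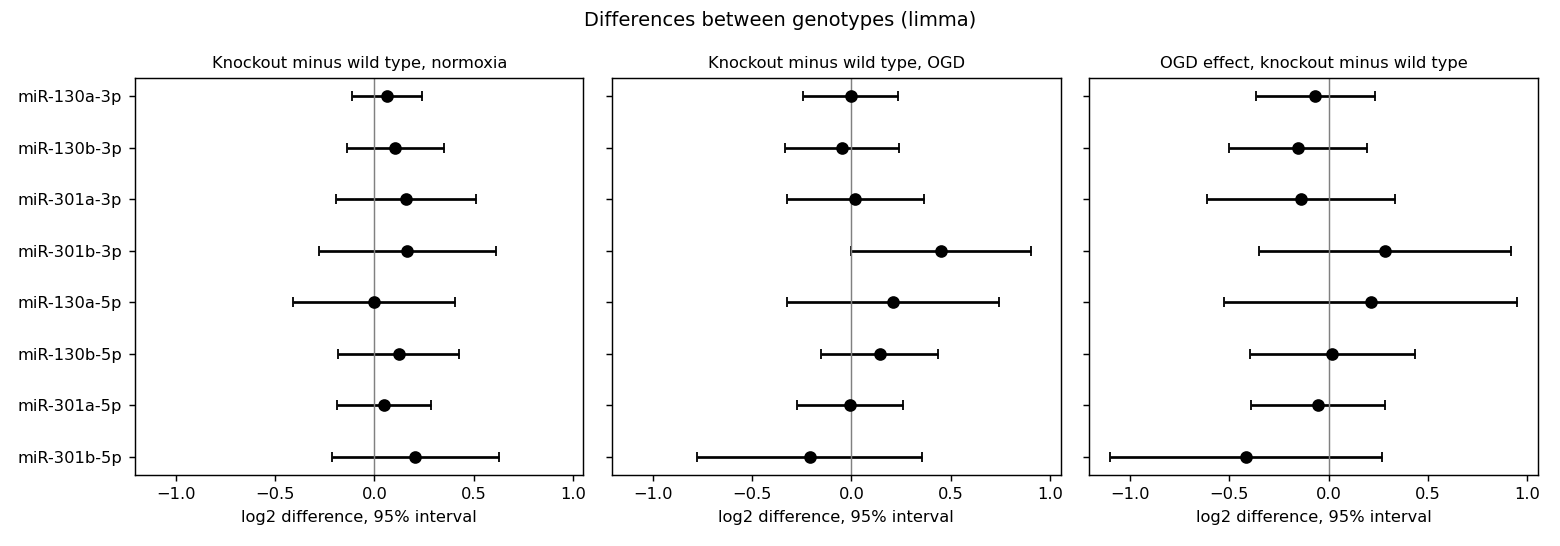
Log2 difference between genotypes for each form with its 95% interval (limma, 5 libraries per group): KO minus WT in normoxia (left), KO minus WT after OGD (middle) and the difference of the OGD effects (right). All intervals include 0; that of miR-301b-3p after OGD, from -0.00 to 0.90, only just does.

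The arm ratio was also compared between genotypes, in 8 exact two-sided permutation tests, for which 5 against 5 libraries allow no p below 0.00794. For miR-130b, KO minus WT was -0.02 on the log2 scale in normoxia (exact p = 0.921), or 0.09 without WT normoxic replicate 5 (exact p = 0.341). After OGD this difference was -0.19 (exact p = 0.317), and ran from -0.26 to -0.06 when 1 library was left out. For miR-301a it was 0.11 in normoxia (exact p = 0.317), or 0.04 without WT normoxic replicate 5 (exact p = 0.635), and 0.02 after OGD (exact p = 0.905). The lowest p of the 8 belonged to miR-301b after OGD, where the ratio was 0.69 higher in KO (exact p = 0.0635, Benjamini-Hochberg adjusted 0.508), at 0.73 ± 0.33 in WT and 1.42 ± 0.68 in KO (SD, n = 5).

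Other microRNAs with the family seed in RefSeq (miR-130c, miR-721, miR-6341 and miR-6389) were not found by name among the 1481 features. The related miR-148 and miR-152 microRNAs carry the same letters shifted by a base, so that their seed begins with the C that precedes the seed in miR-130a-3p. Capitals again mark bases 2 to 8.
miR-148a-3p: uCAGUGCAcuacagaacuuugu
miR-148b-3p: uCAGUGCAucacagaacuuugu
miR-152-3p: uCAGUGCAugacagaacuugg
Of these 3, 0 passed the test under OGD in WT and 1, miR-152-3p, in KO. miR-148a-3p gave a log2 fold change of -0.17 (SE 0.12) in WT and -0.23 (SE 0.11) in KO, and miR-148b-3p 0.14 (SE 0.11) and 0.12 (SE 0.08). miR-152-3p gave 0.38 (SE 0.14; limma adjusted p = 0.0589) in WT and rose by 0.44 (SE 0.13; adjusted p = 0.0192) in KO, which is less than the 0.51 that centring takes off in KO.

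The 5 features whose profile over the 20 libraries lay closest to that of miR-130a-3p were miR-331-3p, miR-326-3p, miR-140-3p, miR-324-3p and miR-500-3p. Likeness was the root mean square difference of log2(CPM + 0.5), each feature centred on its own mean, among 415 features outside the family. It was 0.11 for miR-331-3p, 0.13 for miR-326-3p, 0.18 for miR-140-3p and 0.20 for both miR-324-3p and miR-500-3p. Inside the family, miR-130b-3p was at 0.16, miR-130a-5p at 0.43 and miR-130b-5p at 0.93. miR-331-3p went from 99.4 ± 9.99 to 234 ± 22.7 CPM in WT and from 103 ± 9.30 to 227 ± 14.8 CPM in KO (SD, n = 5). miR-326-3p went from 78.9 ± 8.77 to 219 ± 33.9 CPM in WT and from 86.2 ± 3.74 to 199 ± 27.4 CPM in KO. These are features picked for their likeness, in libraries that share their depth and scaling, so no test is attached.

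Markers of the labelled cells and of other cell types were read in the same libraries. In the marker counts, a rise or fall means a limma call under OGD (adjusted p under 0.05). Of all features, 18.7% were so called higher and 4.4% lower in WT, and 18.8% and 5.75% in KO. The 4 microRNAs enriched in neurons were all present and summed to 287537 to 385903 CPM per library. miR-9-5p alone averaged 266052 CPM in WT normoxia and 259214 CPM in KO normoxia, so the sum mostly follows that microRNA. Under OGD 2 of the 4 rose and 1 fell in each genotype. The 2 astrocyte-enriched microRNAs summed to 1649 to 2583 CPM in WT normoxia and 2448 to 3031 in WT OGD, and to 2137 to 2340 and 2501 to 3323 CPM in KO, and 1 rose in WT and both in KO. The 2 endothelial microRNAs summed to 310 to 387 CPM in WT normoxia and 294 to 381 in WT OGD, and to 314 to 393 and 269 to 343 CPM in KO, and 1 rose in WT. The 5 microglial and blood microRNAs were near 0, at 5.32 to 7.62 CPM in WT normoxia, 6.02 to 16.7 in WT OGD, 5.56 to 7.24 in KO normoxia and 7.73 to 16.4 in KO OGD; 1 rose in KO. The 4 mural and mesenchymal microRNAs summed to 62.0 to 93.7, 72.8 to 100.2, 66.5 to 105.9 and 73.9 to 129.7 CPM in the same order of groups, and 1 rose in WT. The 3 oligodendrocyte-lineage microRNAs summed to 5.86 to 12.0, 9.54 to 14.1, 7.74 to 11.8 and 10.8 to 15.3 CPM, and 1 rose in KO. Centring takes 0.56 in WT and 0.51 in KO off each log2 change. Beside that shift, the called astrocyte-enriched changes were 0.51 in WT (miR-146a-5p) and 0.32 and 0.53 in KO (miR-21a-5p and miR-146a-5p), and the called endothelial change was 0.57 in WT (miR-126a-5p). The called mural change was 1.33 in WT (miR-214-3p), the microglial and blood one 0.63 in KO (miR-155-5p) and the oligodendrocyte-lineage one 0.75 in KO (miR-338-3p). Of the neuronal microRNAs, miR-124-3p gave 0.74 and 0.56, miR-138-5p 0.95 and 0.87 and miR-128-3p -0.57 and -0.53 in WT and KO. No listed marker was at 0 throughout a group, and the part of these cell types in the family's differences was not tested.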

How the data were processed

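Small RNA libraries from 20 cultures (4 groups of 5) were analysed. The authors deposited 6 tables, each of 2 groups, holding a score per feature and library that is named as log CPM but is not: values reach 37.3 where log2 CPM could not pass 19.93. Tested on the files, each score is a power (0.106 to 0.118) of reads over library size, with the lowest and highest of each group of 5 moved 64% of the way to their neighbour. Undoing this gave whole reads for 100% of values (within 0.0134 of a whole number), and 59070 values shared between tables differed in 0 cases. The build was mm10, per the submitters' processing notes; aligner, counter and microRNA annotation are not given in the sources used here.

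CPM used the authors' library factors relative to each other, with their mean log2 level set to that of the recovered totals. On that level library sizes were 0.923 to 1.08 times the recovered totals. Differences were tested with limma 3.58.1 (R 4.3.3) with a mean-variance trend on log2(CPM + 0.5), two-sided, Benjamini-Hochberg over all features, threshold 0.05, and the script was checked on simulated data. Arm ratios used (reads + 0.5) and exact permutation tests. The fits assumed before the files were read that the values were log2 CPM or gave whole reads. Named features were the members, seed relatives, the 5 nearest profiles with mean log2(CPM + 0.5) of at least 3, miR-210-3p and miR-210-5p (2.20 in WT and 1.68 in KO under OGD on the log2 scale), and marker lists of 6 cell types. Members and lists were chosen with earlier results of these data known. Alternatives were other scalings, pseudocounts, filters, thinning, voom, the deposited values, 1 fit of all groups, a replicate block, leaving out each library and, chosen after seeing the data, library sizes as plain sums of reads.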

Additional observations from a re-analysis of the deposited data

Results flagged for a closer look

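Of 48 groups of 5 libraries examined (8 levels and 4 arm ratios in 4 groups), 4 held a library far from the rest of its group by Dixon's criterion; chance gives about 1 in 20 groups, here 2.4. miR-301a-3p was at 13.6 CPM in WT normoxic replicate 5, while the other 4 libraries lay between 24.0 and 24.5 CPM. miR-301b-3p was at 6.04 CPM in that same library, against 10.3 to 12.2 CPM in the others. miR-130b-5p was at 136 CPM in KO normoxic replicate 1, against 105 to 113 CPM. The log2 3p to 5p ratio of miR-130a was 5.29 in KO OGD replicate 4, against 3.77 to 4.21.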

How the results depend on the processing

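Of the counts of called forms and features and the arm-ratio tests, 312 values under an alternative stayed (counts in either direction together within 1.5 times, tests on the same side of 0.05), 10 counts moved further and 2 tests passed 0.05; of the single fold changes 882 stayed, 43 moved and 3 of called forms turned sign; changes of sign in forms not called are not among these 3. Features called under OGD numbered 693 in WT and 784 in KO with voom, against 341 and 363, and 221 in KO when all libraries were thinned to 1160582 reads. Thinning also left 3 of 8 family forms called in WT, where 254 features (17.2%) were called, and 5 in KO (14.9% of features). Leaving out 1 library left 4 to 6 forms in WT, with 262 to 341 features, and 7 in KO, with 293 to 372. Between genotypes, the deposited scores gave 33 called features in normoxia and 72 after OGD; after OGD thinning gave 3, 1 fit of all groups 4, and leaving out 1 library 0 to 22, the 22 without KO OGD replicate 5. The difference of OGD effects gave 0 to 1, the 1 without WT OGD replicate 1. None of these calls between genotypes was a family form. miR-301a-3p turned to -0.0358 in WT and -0.0877 in KO with quantile normalization and to -0.0455 in KO with centring. The arm ratio of miR-301b after OGD ranged from 0.424 to 0.863 when 1 library was left out (exact p = 0.0238 without KO OGD replicate 5), and that of miR-130a in normoxia from -0.021 to 0.231 (exact p = 0.0476 without WT normoxic replicate 4). The cause of these moves was not tested.

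Scaling changed the split of called features: 276 higher and 65 lower in WT became 108 and 265 with centring, 158 and 144 with trimmed-mean scaling (an own implementation) and 141 and 191 with quantile normalization, and 278 and 85 in KO became 112 and 324, 155 and 195, and 141 and 186. With the replicate number as a block, 6 forms in WT and 7 in KO were called, with 389 and 403 features, and 0 in each genotype comparison. The numbers were not shown to pair the samples. Deviations of same-numbered libraries correlated over 0.1 in 4 of 5 pairs of WT and 4 of 5 of KO. The count was 3 of 5 in normoxia and 2 of 5 after OGD. Correlations ran from -0.17 to 0.66 in WT, -0.21 to 0.49 in KO, -0.38 to 0.67 in normoxia and 0.02 to 0.54 after OGD. A library matched its own number best in 3 of 5, 2 of 5, 1 of 5 and 1 of 5. The planned count models, edgeR and DESeq2, were not run; of models for read counts, voom was run on the recovered reads. Forms with 10 to 35 reads per library, such as miR-301b-5p, are limited by depth.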
